A study of Drosophila melanogaster with 6 samples.

Results

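The salivary glue genes *Sgs1*, *Sgs3*, *Sgs4*, *Sgs5*, *Sgs5bis*, *Sgs7*, *Sgs8* and *Eig71Ee* were followed one by one in RNA-seq of larval salivary glands (SGs) of *Drosophila melanogaster*. They were taken by their gene names from the deposited table of normalized counts, where each name occurred once, and they made up 8 of its 23932 entries. Salivary glands of wandering larvae in the third instar were compared between *de2f1b* mutants (replicates 1, 2, 3 and 4, n = 4 libraries) and the control strain *w1118* (replicates 1 and 4, n = 2 libraries). The *de2f1b* allele is a deletion of a microexon of *E2f1* that removes 1 splice isoform of this transcription factor and leaves the canonical isoform in place. Other experiments of the study used larvae homozygous for the allele and larvae with the allele over a deficiency, and no source read here says which of them gave the RNA. The labels call the replicates biological, and the p-values measure only the spread between these 6 libraries.

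The glue is a mixture of secreted proteins that the larval SG makes in its last larval instar under the control of the steroid hormone ecdysone. The proteins are made in the endoplasmic reticulum, packed into large secretory granules and expelled at the onset of metamorphosis, when they fix the pupal case to a surface. Some glue proteins are long, repeat-rich and heavily O-glycosylated mucins, while others are short and rich in cysteine, and their genes lie under puffs of the polytene chromosomes. The comparison asks whether the genes for this main secretory product were expressed at another level in glands that lack the *de2f1b* isoform.

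The reads on genes summed to between 56495956 and 86202639 in *de2f1b* libraries and to 78317269 and 94907006 in *w1118* libraries. These totals were recovered from the smallest step of the deposited values, and they exceed the sequencing depth that the study states. A normalized count is the number of reads on a gene over the size factor of its library, so that 1 read was worth between 0.782 and 1.37. Large values are given in k, with 1 k for 1000 normalized counts. The targeted gene *E2f1* (FBgn0011766) had 12895, 10267, 9304 and 7190 normalized counts in *de2f1b* replicates 1 to 4, against 12544 and 18666 in *w1118* replicates 1 and 4. The groups overlapped, and a count per gene cannot show the loss of a microexon, so it does not check the labels. The gland markers *fkh*, *sage*, *sens* and *CrebA* were present in every library, with summed normalized counts of 62.4 to 128 k in *de2f1b* and of 131 and 235 k in *w1118*. A list of 8 ring gland markers set *de2f1b* replicates 3 and 4 apart from the other libraries, since 7 of the 8 exceeded the higher control more than 10-fold in each. Values without these libraries are given beside the main results.

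None of the 8 glue genes passed the test for a change between *de2f1b* and *w1118* SGs. All 8 passed the filter of at least 10 normalized counts in at least 2 libraries, and 0 of 8 were called by limma at an adjusted p-value under 0.05, where 4.24% of the 11099 genes tested were called. At an unadjusted p under 0.05 limma also gave 0 of 8, against 21.6% of all genes tested, and edgeR and DESeq2 on the recovered whole reads called 0 of 8. The median log2 fold change of the 8 was −0.24, against 0.02 over all genes tested, with 7 negative values and 1 positive value, that of *Sgs8*. The genotype groups overlapped in each of the 8, where 33.4% of all genes tested had groups that did not overlap. Without *de2f1b* replicates 3 and 4, again 0 of 8 were called, but 6 of the 8 values were positive and their median was 0.43. *Sgs1* was then at 0.47, *Sgs3* at 0.46, *Sgs4* at 0.65, *Sgs5* at 0.40, *Sgs5bis* at 0.039, *Sgs7* at −0.086, *Sgs8* at 1.13 and *Eig71Ee* at −0.01. In a bulk gland sample, fewer cells of a type and less RNA per cell cannot be told apart.

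**Figure D1:**
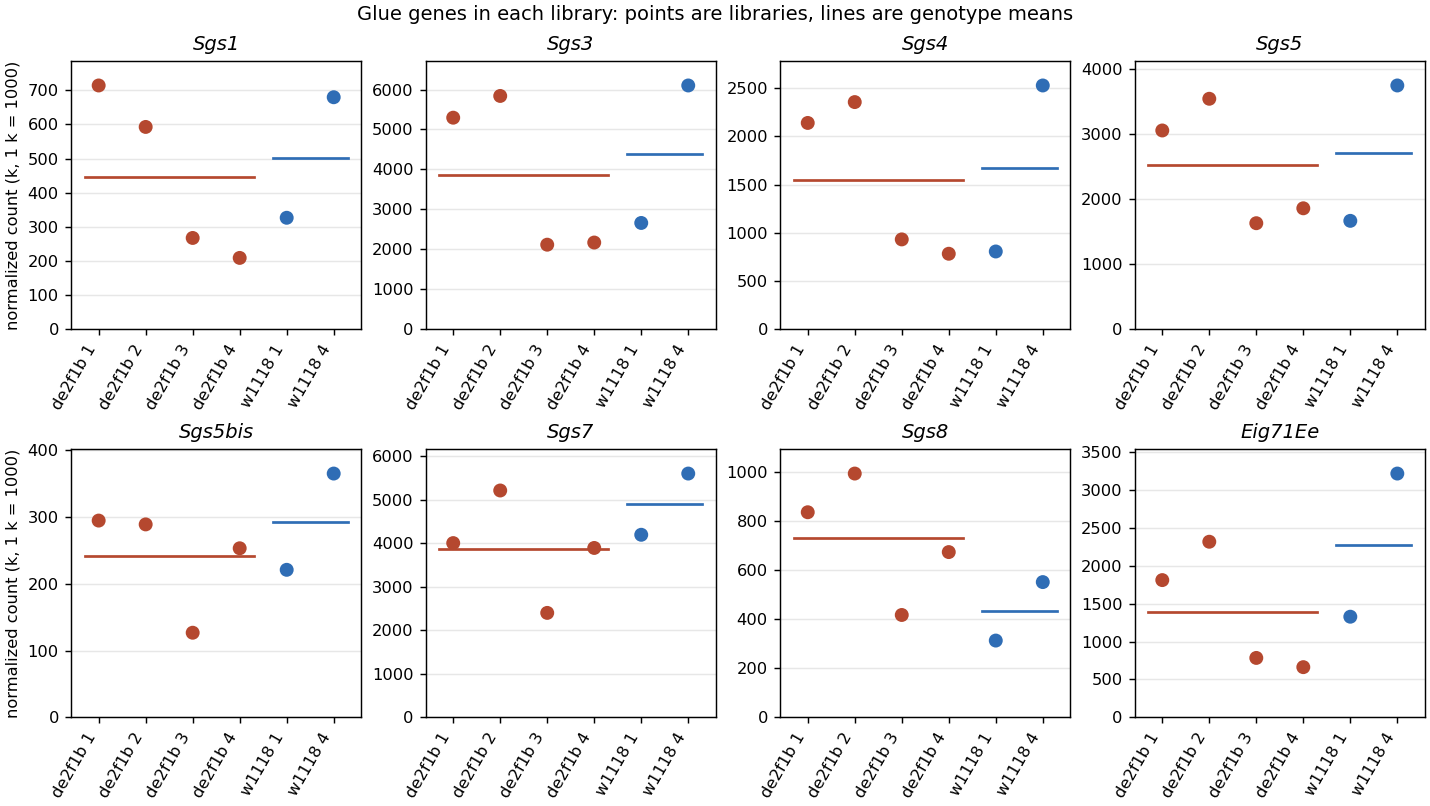
Normalized counts in k on a linear axis from 0, with 1 panel for each glue gene, 1 point for each library and a line at the mean of each genotype (n = 4 *de2f1b*, n = 2 *w1118*). In all 8 panels the *w1118* 4 point lies above the *w1118* 1 point, and the genotypes overlap.

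*Sgs8*, *Sgs7* and *Sgs3* lie next to each other on chromosome 3L, and *Sgs7* and *Sgs3* had the highest mean normalized counts of the 8. *Sgs3* (FBgn0003373, chromosome 3L, 11512221 to 11513402, plus strand, 2 exons) encodes a long mucin-like glue protein with threonine-rich repeats. Its normalized count was 5295, 5839, 2118 and 2172 k in *de2f1b* replicates 1 to 4, against 2662 and 6101 k in *w1118* replicates 1 and 4. The first pair of *de2f1b* libraries and *w1118* replicate 4 were high, and the remaining 3 libraries were low. *Sgs3* averaged 3856 ± 1988 k in *de2f1b* SGs (SD, n = 4) and 4381 ± 2432 k in *w1118* SGs (SD, n = 2), with a log2 fold change of −0.22 (standard error 0.97, limma adjusted p = 0.912). The 95% interval of this fold change ran from −2.54 to 2.10.

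*Sgs7* (FBgn0003377, chromosome 3L, 11509861 to 11510247, plus strand, 2 exons) encodes a short, cysteine-containing glue protein. It had 4007, 5216, 2403 and 3895 k normalized counts in *de2f1b* replicates 1 to 4, against 4198 and 5605 k in *w1118* replicates 1 and 4. Here *de2f1b* replicate 3 alone was low, and 3 of the 4 *de2f1b* libraries lay below both controls. Its mean was 3880 ± 1152 k in *de2f1b* and 4902 ± 995 k in *w1118* SGs, with −0.38 as log2 fold change (standard error 0.89, interval −2.51 to 1.76, limma adjusted p = 0.825).

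*Sgs8* (FBgn0003378, chromosome 3L, 11508967 to 11509394, minus strand, 2 exons) encodes a short glue protein related to that of *Sgs7* and is transcribed away from *Sgs7*, with 466 bp between the 2 genes. It had 836, 994, 418 and 674 k normalized counts in *de2f1b* replicates 1 to 4, against 313 and 552 k in *w1118* replicates 1 and 4. All *de2f1b* libraries but replicate 3 lay above both controls, and *w1118* replicate 1 was the lowest library. *Sgs8* averaged 730 ± 246 k in *de2f1b* and 432 ± 169 k in *w1118* SGs, and its log2 fold change of 0.74 did not pass the test (standard error 0.52, interval −0.50 to 1.99, limma adjusted p = 0.444). Without *de2f1b* replicates 3 and 4 it was 1.13 (limma adjusted p = 0.348). Among 23 alternative settings, 1 made the call, the scaling of each library to the same level of 4 gland regulators, with 1.61 (limma adjusted p = 0.0134). Under that scaling the median of all genes was also 0.88, so that *Sgs8* lay 0.73 above it.

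*Sgs5bis* and *Sgs5* lie in tandem on chromosome 3R with 304 bp between them. *Sgs5* (FBgn0003375, 17595362 to 17596112, plus strand, 3 exons) encodes a glue protein without the long repeats of the mucins. Its normalized count was 3059, 3546, 1633 and 1862 k in *de2f1b* replicates 1 to 4, against 1669 and 3751 k in *w1118* replicates 1 and 4. The libraries split as they did for *Sgs3*, with *de2f1b* replicates 1 and 2 and *w1118* replicate 4 on the high side. *Sgs5* averaged 2525 ± 924 k in *de2f1b* and 2710 ± 1472 k in *w1118* SGs, with a log2 fold change of −0.06 (standard error 0.79, interval −1.96 to 1.83, limma adjusted p = 0.972). 

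*Sgs5bis* (FBgn0038523, 17594386 to 17595057, plus strand, 3 exons), the neighbouring gene related to *Sgs5*, had the lowest mean normalized count of the 8. It had 294, 288, 127 and 253 k in *de2f1b* replicates 1 to 4, against 221 and 364 k in *w1118* replicates 1 and 4. Only *de2f1b* replicate 3 lay outside the range of the controls. Its mean was 241 ± 78.1 k in *de2f1b* and 293 ± 102 k in *w1118* SGs, with −0.31 as log2 fold change (standard error 0.46, interval −1.41 to 0.78, limma adjusted p = 0.710). This was the narrowest interval of the 8.

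*Sgs1* and *Sgs4* each lie apart from the other glue genes and encode repeat-rich mucin-like glue proteins. *Sgs1* (FBgn0003372, chromosome 2L, 4937409 to 4941423, plus strand, 2 exons), the longest of the 8 with 3950 bp of exons, had 714, 593, 268 and 209 k normalized counts in *de2f1b* replicates 1 to 4. Its values in *w1118* replicates 1 and 4 were 327 and 680 k. The *de2f1b* libraries bracketed the controls, with replicate 1 above both and replicates 3 and 4 below both. *Sgs1* averaged 446 ± 246 k in *de2f1b* and 503 ± 250 k in *w1118* SGs, with −0.26 as log2 fold change (standard error 0.65, interval −1.81 to 1.28, limma adjusted p = 0.830).

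*Sgs4* (FBgn0003374, chromosome X, 3250089 to 3251040, plus strand, 1 exon) lies within an intron of *dnc*, which is annotated on the same strand, and no exon of another gene overlaps it. Its normalized count was 2140, 2356, 932 and 784 k in *de2f1b* replicates 1 to 4, against 807 and 2528 k in *w1118* replicates 1 and 4. The controls stood 3.13-fold apart, the widest gap between them among the 8 genes, and nearly spanned the *de2f1b* libraries. *Sgs4* averaged 1553 ± 809 k in *de2f1b* and 1668 ± 1217 k in *w1118* SGs, and its log2 fold change of −0.04 was the smallest of the 8 (standard error 0.81, interval −1.98 to 1.89, limma adjusted p = 0.980).

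*Eig71Ee* (FBgn0004592, chromosome 3L, 15654472 to 15656010, minus strand, 2 exons) encodes a mucin-like protein of the glue and lies in a cluster of ecdysone-induced genes that spans 12684 bp. It had 1810, 2315, 784 and 663 k normalized counts in *de2f1b* replicates 1 to 4, against 1327 and 3214 k in *w1118* replicates 1 and 4. *w1118* replicate 4 was the highest library, and *de2f1b* replicates 3 and 4 lay below both controls. *Eig71Ee* averaged 1393 ± 802 k in *de2f1b* and 2270 ± 1334 k in *w1118* SGs, and its log2 fold change of −0.77, the most negative of the 8, did not pass the test (standard error 0.80, interval −2.69 to 1.16, limma adjusted p = 0.600). Without *de2f1b* replicates 3 and 4 it was −0.01. 

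The other 10 members of this cluster, which are known as late puff genes and are induced after the glue genes, had far fewer reads than *Eig71Ee*. Their summed normalized count was 2560, 2990, 1341 and 1338 in *de2f1b* replicates 1 to 4, against 986 and 1345 in *w1118* replicates 1 and 4. Of the 10, 5 passed the filter and 0 were called in either direction, where 3.17% of all genes tested were called higher and 1.07% lower. In limma 1 was higher and 0 were lower at an unadjusted p under 0.05, against 12.5% and 9.09% of all genes tested. The member with the most reads, *Eig71Ea*, had 1565, 1736, 809 and 891 normalized counts in *de2f1b*, against 469 and 671 in *w1118* SGs (log2 fold change 1.07, standard error 0.38, limma adjusted p = 0.174).

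The libraries of 1 genotype differed widely among themselves. *w1118* replicate 4 exceeded *w1118* replicate 1 in all 8 genes, by 1.34-fold in *Sgs7* to 3.13-fold in *Sgs4*. Within *de2f1b* the highest library exceeded the lowest by 2.17-fold in *Sgs7* to 3.49-fold in *Eig71Ee*. The direction against a single control therefore depended on the control for 5 of the 8 genes. *Sgs1*, *Sgs3*, *Sgs4*, *Sgs5* and *Sgs5bis* had positive log2 fold changes against *w1118* replicate 1 alone (0.26, 0.38, 0.78, 0.52 and 0.05) and negative ones against *w1118* replicate 4 alone (−0.79, −0.82, −0.87, −0.65 and −0.67). *Sgs7* and *Eig71Ee* were negative against each control, with −0.17 and −0.13 against *w1118* replicate 1 and −0.58 and −1.40 against *w1118* replicate 4. *Sgs8* alone was positive against each, with 1.15 against *w1118* replicate 1 and 0.33 against *w1118* replicate 4.

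**Figure D2:**
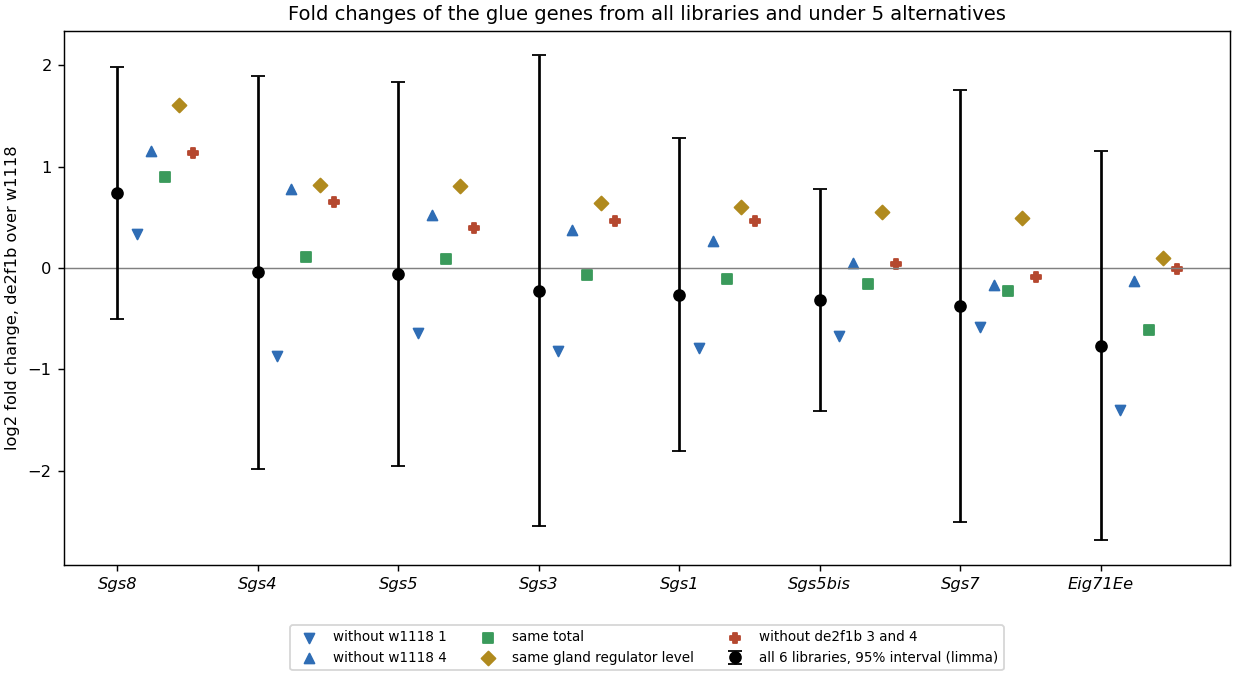
Log2 fold change of each glue gene, *de2f1b* over *w1118*. Black points and bars give the limma estimate from all 6 libraries with its 95% interval, and coloured marks give the estimate without 1 control, without *de2f1b* 3 and 4, or under 2 other scalings. Each interval includes 0, and the marks of *Sgs8* are all above 0, between 0.33 and 1.61.

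The 8 genes together took up a large part of the RNA in both genotypes. They held 24.1%, 26.9%, 16.4% and 15.6% of all reads on genes in *de2f1b* replicates 1 to 4, against 17.6% and 26.2% in *w1118* replicates 1 and 4. The means were 20.7% ± 5.61 in *de2f1b* (SD, n = 4) and 21.9% ± 6.05 in *w1118* SGs (SD, n = 2), a difference of −1.18 percentage points (exact two-sided permutation test, p = 0.667). With 4 against 2 libraries the smallest p of this test is 0.0667. The difference was 3.57 percentage points without *de2f1b* replicates 3 and 4. By reads, *Sgs7* ranked 1 to 2 among all entries in each library, *Sgs3* 1 to 3 and *Sgs5* 3 to 4. *Eig71Ee* ranked 4 to 17, *Sgs4* 5 to 12, *Sgs8* 10 to 21, *Sgs1* 12 to 33 and *Sgs5bis* 27 to 43.

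Of the 8 genes, *Sgs8* was the only one whose share of all reads did not overlap between the genotypes. On normalized counts, all *de2f1b* libraries lay above both controls in 17.4% of the genes tested, and the groups did not overlap in either direction in 33.4%. These percentages were not counted on shares of reads. *Sgs8* held 1.11%, 1.26%, 0.789% and 1.00% of all reads in *de2f1b* replicates 1 to 4, against 0.480% and 0.634% in *w1118* replicates 1 and 4. Its neighbour *Sgs7* held 5.32%, 6.63%, 4.54% and 5.78% in *de2f1b*, against 6.43% and 6.44% in *w1118* SGs. A share of reads uses no size factor, and with every library scaled to the same total the log2 fold change of *Sgs8* was 0.89 (limma adjusted p = 0.0970), and the median of all genes was 0.17.

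Within the glue reads, the parts of *Sgs8*, *Sgs5* and *Eig71Ee* did not overlap between the genotypes, and those of the other 5 genes did. On normalized counts, 33.4% of all genes tested did not overlap between the genotypes, and that percentage was not counted on parts of a sum. *Sgs8* made up 4.61%, 4.70%, 4.81% and 6.41% of the reads on the 8 genes in *de2f1b* replicates 1 to 4, against 2.72% and 2.42% in *w1118* replicates 1 and 4. *Eig71Ee* made up 9.97%, 10.9%, 9.03% and 6.30% in *de2f1b*, against 11.5% and 14.1% in *w1118* SGs. *Sgs5* made up 16.8%, 16.8%, 18.8% and 17.7% in *de2f1b*, against 14.5% and 16.5% in *w1118* SGs, a narrow gap. The parts of *Sgs7* ranged from 22.1% to 37.1% in *de2f1b* libraries and were 36.4% and 24.6% in *w1118* libraries. These parts add up to the whole within a library, so that a larger part of 1 gene lowers those of the rest.

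**Figure D3:**
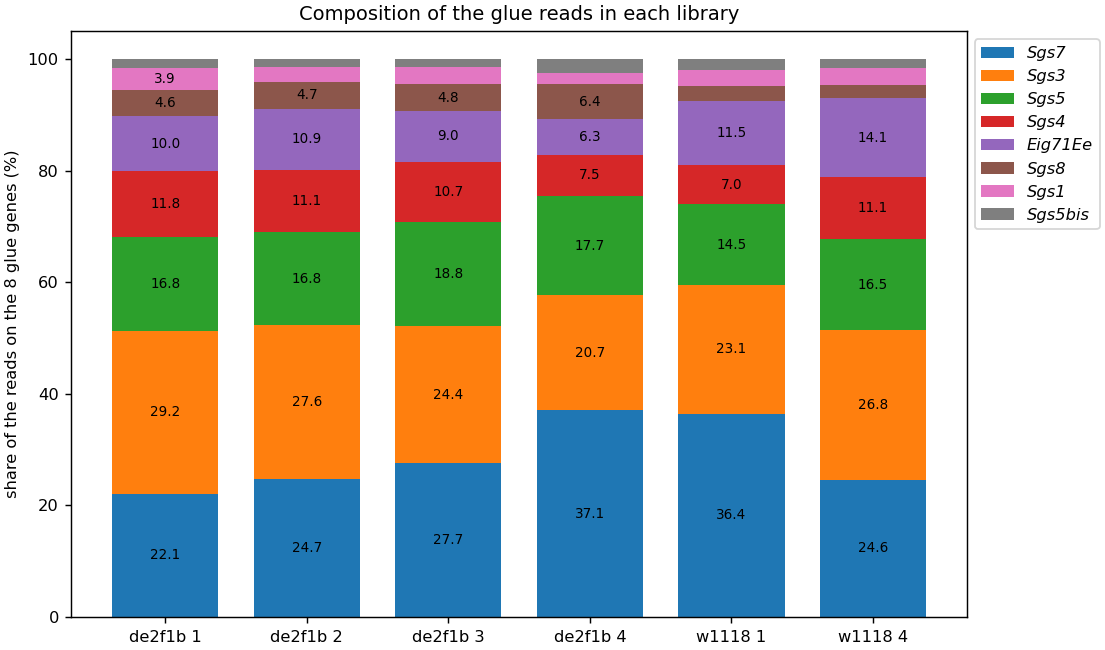
Stacked bars of the reads on the 8 glue genes in each library, each gene as a percentage of their sum, *de2f1b* libraries left and *w1118* libraries right. *Sgs7* and *Sgs3* fill the largest parts in every library, and *Sgs8* takes 4.61% to 6.41% in *de2f1b* and 2.42% to 2.72% in *w1118*.

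Levels of different genes were compared per length of exon, in RPKM, the reads per kilobase of exon and 1000000 reads on genes, and are given in k RPKM. On this scale *Sgs7*, with 321 bp of exons, was the highest, at 173 ± 27.3 in *de2f1b* SGs (SD, n = 4) and 200 ± 0.313 in *w1118* SGs (SD, n = 2). *Sgs5* followed with 56.7 ± 12.9 in *de2f1b* and 54.0 ± 19.5 in *w1118*, and *Sgs3* with 48.9 ± 19.1 in *de2f1b* and 50.0 ± 18.7 in *w1118*. *Sgs8* stood at 29.0 ± 5.57 in *de2f1b* and 15.5 ± 3.04 in *w1118*. *Sgs4* stood at 23.0 ± 9.22 in *de2f1b* and 21.8 ± 12.4 in *w1118*. 

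The lower end of the order by length was made up of *Eig71Ee* with 13.1 ± 5.95 in *de2f1b* and 19.3 ± 7.91 in *w1118*, *Sgs5bis* with 6.23 ± 1.27 in *de2f1b* and 6.88 ± 1.04 in *w1118*, and *Sgs1* with 1.59 ± 0.707 in *de2f1b* and 1.62 ± 0.503 in *w1118*. *Sgs7* lay above *Sgs5*, *Sgs3* above *Sgs8* and *Sgs5bis* above *Sgs1* in 6 of 6 libraries. *Sgs5* also lay above *Sgs3* in 6 of 6 libraries, by only 1.13-fold on average. *Sgs5* and *Sgs3* were nearest in *de2f1b* replicate 1 (63.8 and 63.4) and farthest apart in *de2f1b* replicate 4 (43.4 and 29.1). The other steps of the order held in 5 of 6 libraries. *Sgs4* exceeded *Sgs8* in *w1118* replicate 4, *Eig71Ee* exceeded *Sgs4* in *w1118* replicate 1, and *Sgs5bis* exceeded *Eig71Ee* in *de2f1b* replicate 4. *Sgs1*, *Sgs3*, *Sgs4* and *Eig71Ee* are rich in repeats, and how the counting treated reads that fit several places is not given in the sources used here, so that levels between genes may be understated for them.

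A ratio of 2 genes within a library does not depend on the scaling of the library. The log2 ratio of *Sgs8* to *Sgs7* was −2.26, −2.39, −2.52 and −2.53 in *de2f1b* replicates 1 to 4, against −3.74 and −3.35 in *w1118* replicates 1 and 4. In reads, there were 20.9, 19.1, 17.4 and 17.3 of *Sgs8* for 100 of *Sgs7* in *de2f1b*, against 7.46 and 9.84 in *w1118* SGs. All *de2f1b* libraries lay above both controls, with a difference of 1.12 on the log2 scale (exact two-sided permutation test, p = 0.0667, the smallest it can give, adjusted p = 0.133 over the 4 neighbour ratios). The difference was 1.22 without *de2f1b* replicates 3 and 4.

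The log2 ratio of *Sgs8* to *Sgs3* was −2.66, −2.55, −2.34 and −1.69 in *de2f1b*, against −3.09 and −3.47 in *w1118* SGs, again without overlap and with a difference of 0.96 (exact permutation p = 0.0667, adjusted p = 0.133), which was 0.67 without *de2f1b* replicates 3 and 4. *Sgs7* to *Sgs3* gave −0.40, −0.16, 0.18 and 0.84 in *de2f1b*, against 0.66 and −0.12 in *w1118* SGs, which overlapped (difference −0.15, exact permutation p = 0.8). *Sgs5bis* to *Sgs5* gave −3.38, −3.62, −3.69 and −2.88 in *de2f1b*, against −2.92 and −3.36 in *w1118* SGs, which also overlapped (difference −0.25, exact permutation p = 0.6). Of the 4 ratios between neighbours, the 2 that hold *Sgs8* separated the genotypes, and neither could pass a threshold of 0.05 in this design.

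Of the 28 ratios between any 2 of the 8 genes, 11 did not overlap between the genotypes, or 39.3%. All 7 ratios that hold *Sgs8* were among them, with differences of 0.79 to 1.51 on the log2 scale. Of the rest, 4 were ratios of *Sgs1*, *Sgs3*, *Sgs4* and *Sgs5* to *Eig71Ee*, and 0 of the 15 ratios without *Sgs8* or *Eig71Ee* separated the genotypes (differences −0.22 to 0.33). Ratios that share a gene are not separate observations. There were 84.6, 98.3, 84.1 and 84.6 reads of *Eig71Ee* for 100 of *Sgs4* in *de2f1b* replicates 1 to 4, against 164 and 127 in *w1118* replicates 1 and 4. Such separation was common among other strongly expressed genes. Among the 89 other genes with a mean normalized count of at least 100000, 47.1% of 3916 pair ratios did not overlap. A difference at least as large as that of *Sgs8* to *Sgs7* was found in 29.1% of these pairs, and one as large as that of *Sgs8* to *Sgs3* in 32.4%.

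**Figure D4:**
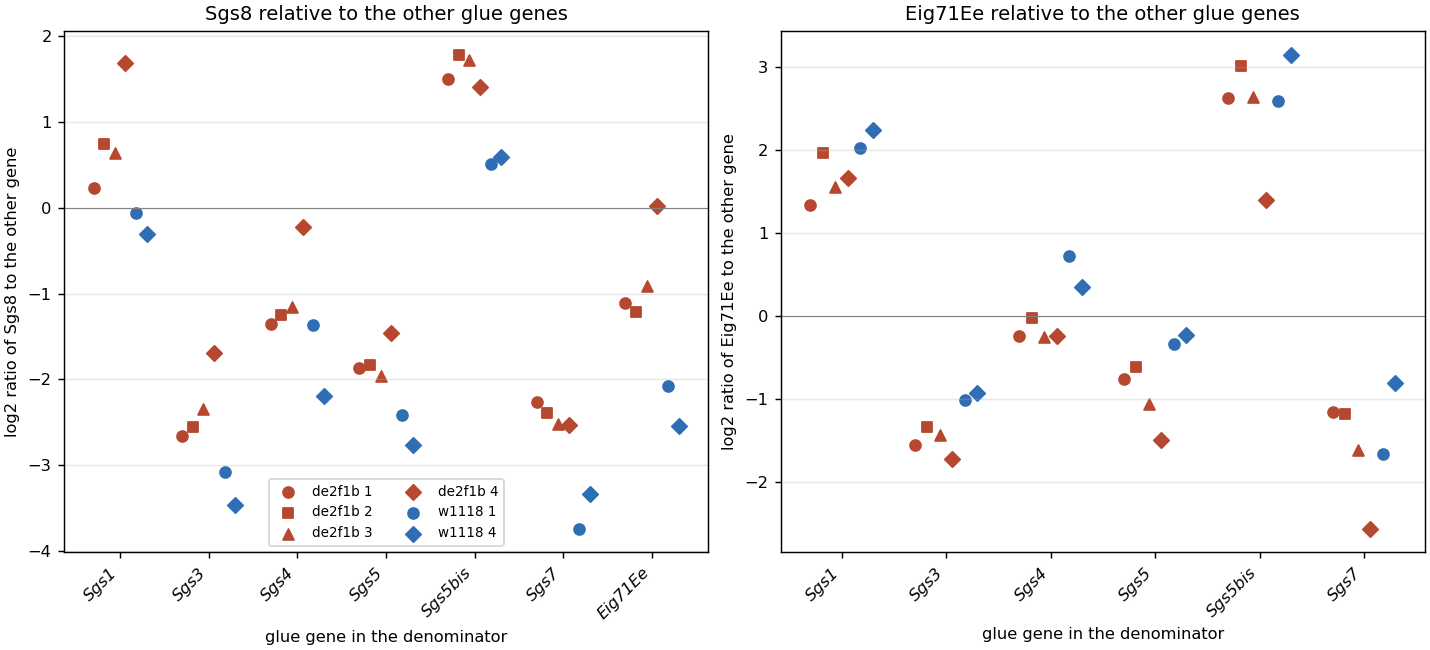
Log2 ratio of *Sgs8* to each other glue gene (left) and of *Eig71Ee* to each glue gene but *Sgs8* (right), with 1 mark for each library, *de2f1b* in red and *w1118* in blue. On the left all *de2f1b* marks lie above both *w1118* marks for each of the 7 genes, and on the right they lie below both for *Sgs1*, *Sgs3*, *Sgs4* and *Sgs5*.

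The pattern over the libraries was shared in part by the 8 genes. After each gene was centred on its own mean, the mean log2 profile was 0.42, 0.56, −0.71 and −0.49 in *de2f1b* replicates 1 to 4, against −0.41 and 0.63 in *w1118* replicates 1 and 4. The root mean square distance from it over the 6 libraries was smallest for *Sgs5* (0.0950) and *Sgs3* (0.139), and largest for *Eig71Ee* (0.368) and *Sgs8* (0.471). Between them lay *Sgs1* (0.259), *Sgs4* (0.261), *Sgs5bis* (0.302) and *Sgs7* (0.330). The nearest pairs were *Sgs1* with *Sgs3* (0.173), *Sgs3* with *Sgs4* (0.176) and *Sgs5bis* with *Sgs7* (0.181), and the farthest was *Sgs8* with *Eig71Ee* (0.827). Among 8117 other genes with a mean normalized count of at least 100, the nearest to the mean profile were *galectin* (0.134), *lncRNA:CR43440* (0.149), *CG46385* (0.154), *CG9650* (0.154) and *CG12012* (0.157). The genes share the 6 libraries and their scaling, and the distances are descriptions.

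Of 6 other genes for salivary secretions, 1 rose in *de2f1b* SGs (*ng1*) and 0 fell, where 3.17% of the genes tested were called higher and 1.07% lower. All *de2f1b* libraries lay above both controls in 4 of the 6, the genes *ng1*, *ng2*, *ng3* and *ng4*, which was the case in 17.4% of the genes tested. The median log2 fold change of the 6 was 1.27. These 4 new glue genes and *Pig1* share an intron of *dnc* with *Sgs4*, in a stretch of 11015 bp on chromosome X, and *Pig1* is transcribed away from *Sgs4* with 799 bp between them.

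*ng1* (FBgn0002933), a single-exon gene for a glue-like secreted protein, had 35924, 20203, 21021 and 45779 normalized counts in *de2f1b* replicates 1 to 4, against 4694 and 1809 in *w1118* replicates 1 and 4. The lowest *de2f1b* library was above both controls, and the log2 fold change was 3.31 (standard error 0.49, limma adjusted p = 0.0195). The call was lost in 5 of 23 alternatives, among them edgeR (adjusted p = 0.0530) and the limma fits without *de2f1b* replicate 1 (0.0681), without *w1118* replicate 4 (0.161) and without *de2f1b* replicates 3 and 4 (0.0894). 

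*ng3* (FBgn0010295), the strongest of the 4, had 557, 587, 404 and 633 k normalized counts in *de2f1b*, against 224 and 146 k in *w1118* SGs, and did not pass the test (log2 fold change 1.57, limma adjusted p = 0.0779). It was called in 8 of 23 alternatives, among them limma without the trend (adjusted p = 0.0469) and DESeq2 (adjusted p = 1.1e-06), but not with edgeR (adjusted p = 0.0710). *ng2* had a log2 fold change of 1.50 (limma adjusted p = 0.0639), *ng4* of 1.03 at no more than 63.3 normalized counts, and *Pig1* of 0.26 with overlapping groups. *Sgs4*, in the same intron, had a log2 fold change of −0.04. *Sgsf* on chromosome 3R had 172, 186, 81.6 and 99.7 k normalized counts in *de2f1b*, against 146 and 271 k in *w1118* SGs, and did not pass the test (log2 fold change −0.65, limma adjusted p = 0.446).

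**Figure D5:**
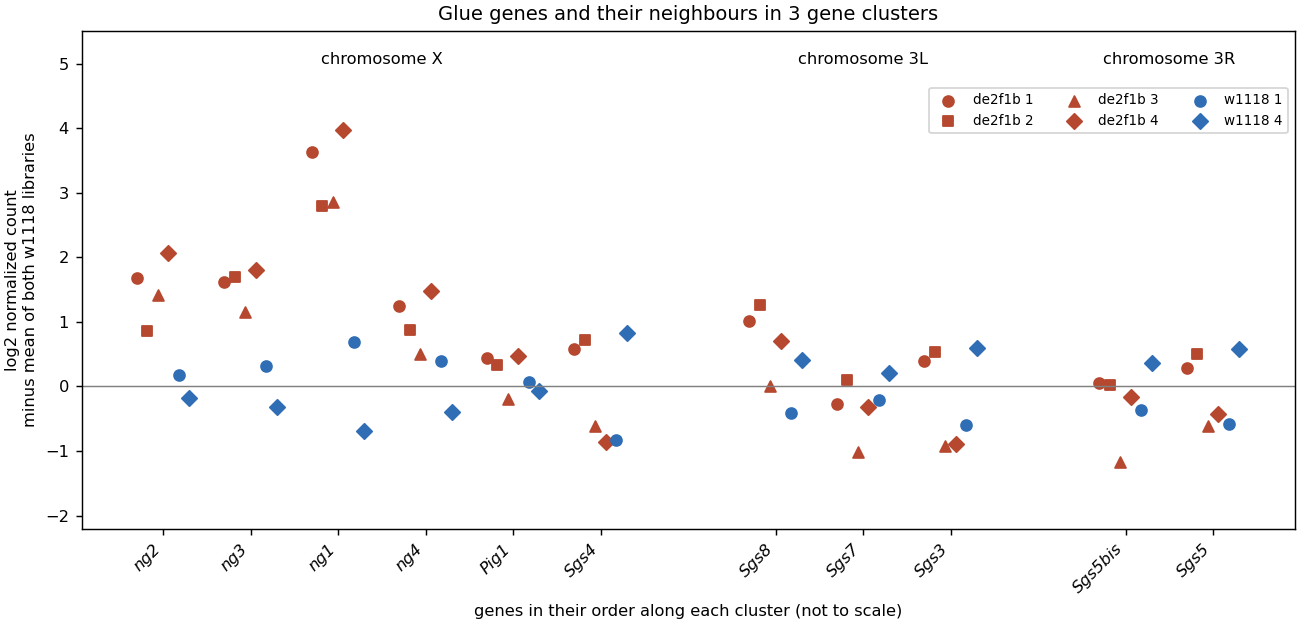
Log2 normalized count of each gene minus its mean over both *w1118* libraries, for the glue genes and their neighbours in the order in which they lie on chromosomes X, 3L and 3R, with 1 mark for each library, *de2f1b* in red and *w1118* in blue. All *de2f1b* marks lie above both *w1118* marks in *ng2*, *ng3*, *ng1* and *ng4*, and the marks overlap in *Pig1*, in *Sgs4* and in the genes of 3L and 3R.

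Among 11 regulators of glue gene transcription, 0 were called higher and 0 lower in *de2f1b* SGs, against 3.17% and 1.07% of all genes tested. In limma 1 was higher and 2 were lower at an unadjusted p under 0.05, against 12.5% and 9.09% of all genes. The higher one, *ftz-f1*, had the smallest adjusted p of the list (log2 fold change 0.95, limma adjusted p = 0.0922). It had 551, 437, 690 and 493 normalized counts in *de2f1b* replicates 1 to 4, against 298 and 258 in *w1118* replicates 1 and 4. Their median log2 fold change was −0.41, with 2 positive and 9 negative values. The largest difference was that of *sage*, a basic helix-loop-helix factor of the SG that acts with Fork head on secretory genes. *sage* had 60254, 80175, 36174 and 39850 normalized counts in *de2f1b* replicates 1 to 4, against 83693 and 149564 in *w1118* replicates 1 and 4. All *de2f1b* libraries lay below both controls, as in 16.0% of the genes tested, and the log2 fold change of −1.12 did not pass the test (standard error 0.41, limma adjusted p = 0.187). It was −0.69 without *de2f1b* replicates 3 and 4.

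Among 16 genes for glycosylation, packaging and exocytosis of the glue, 0 rose and 1 fell in *de2f1b* SGs, where 3.17% of all genes tested were called higher and 1.07% lower. The median log2 fold change of the 16 was −0.45. The gene that fell was *dia*, which encodes the formin Diaphanous that nucleates actin filaments around fused glue granules. It had 3659, 4931, 3421 and 4093 normalized counts in *de2f1b* replicates 1 to 4, against 7774 and 10102 in *w1118* replicates 1 and 4. The log2 fold change was −1.15 (standard error 0.20, limma adjusted p = 0.0309), and 10 of 23 alternatives lost the call, among them those without *w1118* replicate 1, without *w1118* replicate 4 and without *de2f1b* replicates 1, 3 or 4. Without *de2f1b* replicates 3 and 4 together it was −1.06 (limma adjusted p = 0.113).

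RNA of other tissues differed between the libraries along with the glue genes in part. The 8 ring gland markers summed to 7415, 8661, 17352 and 22961 normalized counts in *de2f1b* replicates 1 to 4, against 4189 and 6462 in *w1118* replicates 1 and 4. Most of the sum outside *de2f1b* replicates 3 and 4 was *sro*, and *phm*, which defines the hormone-producing cells, was at 0 in *w1118* replicate 4. Both libraries with high ring gland markers were low in *Sgs1*, *Sgs3*, *Sgs4*, *Sgs5* and *Eig71Ee*, and *w1118* replicate 1, with low ring gland markers, was low in these genes as well. The 5 muscle markers summed to 39.9, 32.0, 72.0 and 133 k in *de2f1b*, against 36.2 and 13.2 k in *w1118* SGs, and the 5 nervous system markers to 233, 197, 3552 and 1978 in *de2f1b*, against 442 and 167 in *w1118* SGs. The 6 fat body markers held between 5.53% and 8.58% of the reads in *de2f1b* and 6.75% and 5.53% in *w1118* libraries, and the 5 hemocyte markers summed to 1513 to 2239 in *de2f1b*, against 2531 and 2942 in *w1118* libraries. Of these lists, the called genes were 1 hemocyte marker, *eater*, which was lower, and 0 of the fat body, muscle, nervous system and ring gland markers, where 1.07% of all genes tested were called lower and 3.17% higher. The 5 hemocyte markers did not move together, with 4 negative log2 fold changes and 1 positive one, that of *NimC1*. *NimC1* had 255, 260, 186 and 246 normalized counts in *de2f1b* replicates 1 to 4, against 95.9 and 122 in *w1118* replicates 1 and 4. Its log2 fold change of 1.11 did not pass the test (limma adjusted p = 0.0860). The part of these other tissues in the glue gene values was not tested.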

How the data were processed

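RNA of SGs was sequenced in 4 *de2f1b* and 2 *w1118* libraries. Per the labels, the authors checked reads with FastQC 0.11.8, aligned them with STAR 2.7.6a to BDGP6, counted them on genes with featureCounts 1.6.0 and used DESeq2. Strandedness and multi-mapping settings are not given in the sources used here. The deposited columns hold a signal, namely reads per gene scaled by the size factor of the library. The authors also deposited log2 fold changes, a test score and p-values, which were not used. In each library 100% of the values were whole multiples of 1 read (tolerance 0.001), and 3 reads, the limit for a count of 0, equal 2.35 to 4.11 normalized counts, for counting error only. There were 0 other columns of single libraries.

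Genes with at least 10 normalized counts in at least 2 libraries (11099) were fitted with limma 3.58.1 in R 4.3.3 on log2(normalized count + 1) with an intensity trend and genotype as the only term, two-sided, with Benjamini-Hochberg adjustment and a threshold of 0.05. Fold changes are on that scale. edgeR 4.0.16 and DESeq2 1.42.0 were run on the recovered reads. Single values were tested by exact permutation of the libraries. Tables were handled in pandas 2.3.3 and NumPy 2.4.6 (Python 3.11.15), tests in SciPy 1.17.1 and plots in Matplotlib 3.10.9.

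Positions and exon lengths are those of the BDGP6.54 annotation, in which 23851 entries were found. No sequences were used here, so the planned promoter motif search was not run. The members, lists and tests were chosen with earlier results of these data known. Named genes were all 8 glue genes, every called gene of the 3 lists of secretion, regulator and packaging genes with the largest difference in each, and the 5 genes nearest to the mean profile. Other genes were named after their values were seen (*E2f1*, the other *ng* genes, *Pig1*, *Sgsf*, *Eig71Ea*, *ftz-f1*, single markers). Of 17 packaging genes 16 were analysed. The alternatives were other pseudocounts, filters, scalings and tests, the replicate number as a block, and leaving out libraries.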

Additional observations from a re-analysis of the deposited data

How the results depend on the processing

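Across 23 alternatives for each gene, no glue gene was called but *Sgs8* in 1 of them (1 gene called, 1.61), the scaling of each library to the same level of *fkh*, *sage*, *sens* and *CrebA*. This scaling, the scaling to equal glue reads and the fits without *de2f1b* replicates 3 and 4 were chosen after seeing the data. The scaling to the gland regulators moved the median of all genes to 0.88 and turned *Sgs1* to 0.60, *Sgs3* to 0.65, *Sgs4* to 0.82, *Sgs5* to 0.81, *Sgs5bis* to 0.55, *Sgs7* to 0.49, *Eig71Ee* to 0.10 and *Sgsf* to 0.22, all below that median. Without *de2f1b* replicates 3 and 4 the log2 fold changes were positive for *Sgs1* (0.47), *Sgs3* (0.46), *Sgs4* (0.65), *Sgs5* (0.40) and *Sgs5bis* (0.039), and the difference in the share of reads was 3.57 percentage points. Scaled to equal totals over all reads, *Sgs4* was at 0.11 and *Sgs5* at 0.090, over the reads outside the glue genes at 0.087 and 0.069, and over the glue reads at 0.20 and 0.18 with *Sgs3* at 0.022. Quantile normalization gave *Sgs4* 0.32. The cause was not tested.

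Leaving out 1 library at a time gave log2 fold changes of −0.79 to 0.26 for *Sgs1*, −0.82 to 0.38 for *Sgs3*, −0.87 to 0.78 for *Sgs4*, −0.65 to 0.52 for *Sgs5*, −0.67 to 0.049 for *Sgs5bis*, −0.58 to −0.16 for *Sgs7*, 0.33 to 1.15 for *Sgs8* and −1.40 to −0.13 for *Eig71Ee*. It gave −5.46 to 3.10 percentage points for the share of reads, and ratio differences of −0.54 to 0.24 for *Sgs7* to *Sgs3*, 0.92 to 1.32 for *Sgs8* to *Sgs7*, 0.76 to 1.16 for *Sgs8* to *Sgs3* and −0.47 to −0.029 for *Sgs5bis* to *Sgs5*. With 1 control left, that control is assumed to vary like the *de2f1b* libraries.

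Of the other secretion genes, 2 were called higher with a mean of at least 100, under the scalings to equal totals over all reads, to equal totals outside the glue genes and to the gland regulators, under quantile normalization, without the trend and with robust eBayes. DESeq2 called 3 (*ng1*, *ng2* and *ng3*), and edgeR, the replicate block and the fit without *de2f1b* replicates 3 and 4 called 0. Leaving out 1 library gave 0 to 2. Of the regulators DESeq2 called 1 higher, *ftz-f1*, and 1 lower, *sage*, and of the packaging genes 1 higher, *C1GalTA*. The packaging genes called lower were 0 without the trend, with the replicate block, without *de2f1b* replicates 3 and 4, and under the scalings to the glue genes and to the gland regulators, and 0 to 1 without 1 library.

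The replicate numbers 1 and 4 occur in both genotypes. The deviations of the libraries with the same number from their genotype means correlated at −0.32 and −0.36. With 2 controls the deviations of 1 control are the negative of those of the other, so these are not separate checks. They cannot decide whether the numbers pair the libraries. With the replicate number as a block 5 genes were higher and 2 lower over all genes tested, against 352 and 119 without it, and *Sgs8* was at 0.85 (limma adjusted p = 0.854). Other counts over all genes that differed by more than 1.5 times were 208 higher and 71 lower without a filter, 175 and 91 under quantile normalization, 158 and 67 with edgeR, 1069 and 561 with DESeq2, 111 and 43 without *de2f1b* replicates 3 and 4, 89 and 24 scaled to the glue genes, 329 and 21 scaled to the gland regulators, and 69 to 216 higher and 5 to 66 lower without 1 library. Limma's intervals of the 8 genes span 2.19 to 4.64 log2 units, which limits what the comparison can show. Their width reflects the intensity trend of the fit as well as the spread between the libraries and the 2 controls. Without the trend the limma adjusted p of *Sgs7* was 0.568, against 0.825 with it, and that of *Sgs1* was 0.833, against 0.830. Without the trend 0 of the 8 were called.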

Other observations

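Ratios of *Sgs8* to secretion genes outside the 8, chosen after the values were seen, differed by partner. Among other genes with a mean normalized count of at least 100000, 47.1% of pair ratios did not overlap between the genotypes. The log2 ratio of *Sgs8* to *Sgsf* was 2.28, 2.42, 2.36 and 2.76 in *de2f1b* replicates 1 to 4, against 1.10 and 1.02 in *w1118* replicates 1 and 4, without overlap (difference 1.39). The ratio of *Sgs8* to *ng3* was 0.59, 0.76, 0.05 and 0.09 in *de2f1b*, against 0.48 and 1.92 in *w1118* SGs, which overlapped (difference −0.83). That of *Sgs8* to *Pig1* was 2.41, 2.77, 2.04 and 2.07 in *de2f1b*, against 1.37 and 2.32 in *w1118* SGs, which overlapped as well (difference 0.48).

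In the intron of *dnc*, the log2 ratio of *ng1* to *Sgs4* was −5.90, −6.87, −5.47 and −4.10 in *de2f1b*, against −7.43 and −10.45 in *w1118* SGs, without overlap (difference 3.35). The ratios of *ng2*, *ng3*, *ng4* and *Pig1* to *Sgs4* overlapped, with differences of 1.55, 1.62, 1.11 and 0.31. None of these ratios was tested, and the share of other pairs that separate at the level of *ng1* was not counted.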
